A study of Homo sapiens with 6 samples.

Results

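The integrated stress response is the pathway by which cells slow protein synthesis and switch on repair genes when amino acids run short, proteins misfold, or other stresses arise. The 10 genes described here are its core factors: the transcription factors ATF4, ATF5, DDIT3, CEBPB and CEBPG, the transcriptional regulator NUPR1, the feedback genes TRIB3 and PPP1R15A, and the kinases EIF2AK3 and EIF2AK4. They were chosen by symbol from a table of 17269 genes, and all 10 were found. The choice was made with the lower level of ATF5 and the higher level of ATF4 target genes in these libraries already known, so differences of the 10 genes between groups are given as a description, with no test.

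The cells were HCT116, an established human colorectal carcinoma line, in 6 libraries of poly(A)-selected RNA. The 3 control libraries are named shCtrl, with the genotype given as wild type, and in the 3 shPRSS22 libraries a short hairpin RNA, per the library names, was directed against PRSS22, which encodes a trypsin-like serine protease. No other agent or allele is named for either group. The labels give no hairpin sequence and no time after its introduction, nor do they say whether the replicates were separate cultures, so p-values measure only the spread between these libraries, which may be technical.

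In this pathway, kinases that sense different stresses phosphorylate the translation initiation factor eIF2. EIF2AK3 (PERK) responds to unfolded protein in the endoplasmic reticulum, EIF2AK4 (GCN2) to uncharged tRNA, EIF2AK2 (PKR) to double-stranded RNA, and EIF2AK1 (HRI) to heme deficiency and mitochondrial stress. Most translation then falls, while mRNAs with short upstream reading frames, among them those of ATF4, ATF5, DDIT3 and PPP1R15A, are translated better. ATF4 induces genes of amino acid supply and, in turn, DDIT3, TRIB3 and PPP1R15A, the last of which brings a phosphatase to eIF2 and closes the loop. The libraries report mRNA levels only; eIF2 phosphorylation and protein levels were not measured here.

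Library totals ranged from 14920523 to 15466647 estimated counts. PRSS22 lay between 9.38 and 10.1 counts per 1000000 (CPM) in shCtrl and between 2.61 and 3.16 CPM in shPRSS22, a log2 fold change of -1.74 (SE 0.135, adjusted p = 4.78e-12). The summed level of the epithelial markers EPCAM, KRT8, KRT18, KRT19, CDH1, VIL1 and CDX2 (7 of 8 listed) was 4101.9 to 4282.3 CPM in shCtrl and 4035.0 to 4304.6 CPM in shPRSS22. Of these VIL1 stayed at or below 1.48 CPM, and CDH1 rose by 0.15 on the log2 scale (adjusted p = 9.01e-04). Of 11 fibroblast, endothelial and immune markers 10 were in the table. Their sum was 39.5 to 48.3 CPM in shCtrl and 46.0 to 54.7 CPM in shPRSS22, nearly all from COL1A1 and CD68. CDH5 was at 0 in all libraries, and PTPRC and DCN did not exceed 0.0653 CPM. CD68 rose by 0.24 (adjusted p = 0.0271), a call lost without shCtrl replicate 1 (adjusted p = 0.0693) or 3 (0.0993) and without shPRSS22 replicate 1 (0.0876) or 2 (0.14), and with DESeq2 (0.134). The part of these markers in the results below was not tested.

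The promoters of 4 of the genes are shown so that members with opposite differences can be compared: DDIT3, the highest above its controls of the members over 10 CPM; CEBPG and PPP1R15A, which hold motifs of ATF and CREB factors; and ATF5, which was lower. Each stretch is the part of a RefSeq start-site window (GRCh38.p14) that lies upstream of the start and outside annotated exons, read 5′ to 3′ on the gene's strand. Capitals mark matches to the motifs searched: the C/EBP-ATF composite element TGATGNAA, the cyclic AMP response element TGACGTCA, the antioxidant element TGACNNNGC, and the endoplasmic reticulum stress element, CCAAT and CCACG with 9 bases between them, on both strands. The DDIT3 stretch is chr12:57520518-57520709, minus strand, upstream of the second of 2 starts listed for the gene. The PPP1R15A stretch is chr19:48872171-48872391, plus strand. The CEBPG stretch is chr19:33373896-33374112, plus strand, upstream of the second of 2 starts, the one with the match. The ATF5 stretch is chr19:49929995-49930218, plus strand, upstream of the third start listed for the gene.
DDIT3: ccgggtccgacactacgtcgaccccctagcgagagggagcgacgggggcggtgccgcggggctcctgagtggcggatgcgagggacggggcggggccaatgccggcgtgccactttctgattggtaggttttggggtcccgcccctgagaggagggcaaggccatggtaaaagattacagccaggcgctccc
PPP1R15A: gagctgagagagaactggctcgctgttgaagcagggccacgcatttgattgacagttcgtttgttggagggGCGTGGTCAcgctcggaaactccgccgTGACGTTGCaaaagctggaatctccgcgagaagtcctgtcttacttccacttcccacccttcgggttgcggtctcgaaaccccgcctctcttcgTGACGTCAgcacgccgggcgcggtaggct
CEBPG: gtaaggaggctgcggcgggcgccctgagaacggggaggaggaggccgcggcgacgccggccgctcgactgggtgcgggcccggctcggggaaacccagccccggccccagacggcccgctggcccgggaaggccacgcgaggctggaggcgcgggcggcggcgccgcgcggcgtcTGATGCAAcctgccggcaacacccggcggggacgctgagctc
ATF5: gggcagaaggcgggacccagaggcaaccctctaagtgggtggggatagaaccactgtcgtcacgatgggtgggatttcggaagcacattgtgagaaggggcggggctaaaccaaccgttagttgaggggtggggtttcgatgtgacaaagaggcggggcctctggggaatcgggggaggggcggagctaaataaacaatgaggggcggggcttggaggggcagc

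PPP1R15A held the cyclic AMP response element TGACGTCA from 58 to 51 bases before its start, a palindrome that matches both strands, and a pair of antioxidant element matches further upstream. CEBPG held the composite element as TGATGCAA from 42 to 35 bases before its second start. The DDIT3 and ATF5 stretches held no exact match. The DDIT3 stretch holds CCAAT and CCACT with 9 bases between them, 1 letter from the stress element searched. The ATF5 stretch likewise holds TGTCGTCA, 1 letter from the cyclic AMP response element, and TGACAAAGA, 1 letter from the antioxidant element. Near matches were not searched for in any gene, so these do not set the genes apart. Over all 17 windows of the 9 members in the RefSeq table, from 250 bases before to 50 bases after a start, the composite element was in 1 window, the cyclic AMP response element in 1 and the stress element in 0. The same elements were in 3.62%, 1.85% and 0.0769% of all 35116 windows. The antioxidant element was in 5 member windows, of PPP1R15A, CEBPB and TRIB3, against 13.3% of all windows; the 3 TRIB3 windows overlap and share 1 match. NUPR1 had no entry. A match describes these letters only. The libraries count whole genes, so the start used in these cells is not known.

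All 10 genes passed the filter on low counts. In shPRSS22 ATF5 stood at 0.559 times its shCtrl level and DDIT3 at 1.43 times, while ATF4 itself overlapped between groups. With no overlap between groups 7 were higher, NUPR1 among them, and 2 lower, where 24.2% and 24.3% of all 13104 tested genes were. The choice of members used this contrast, so nothing is read from this count. Their median log2 fold change was 0.16, against -0.01 over all tested genes.

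**Figure D1:**
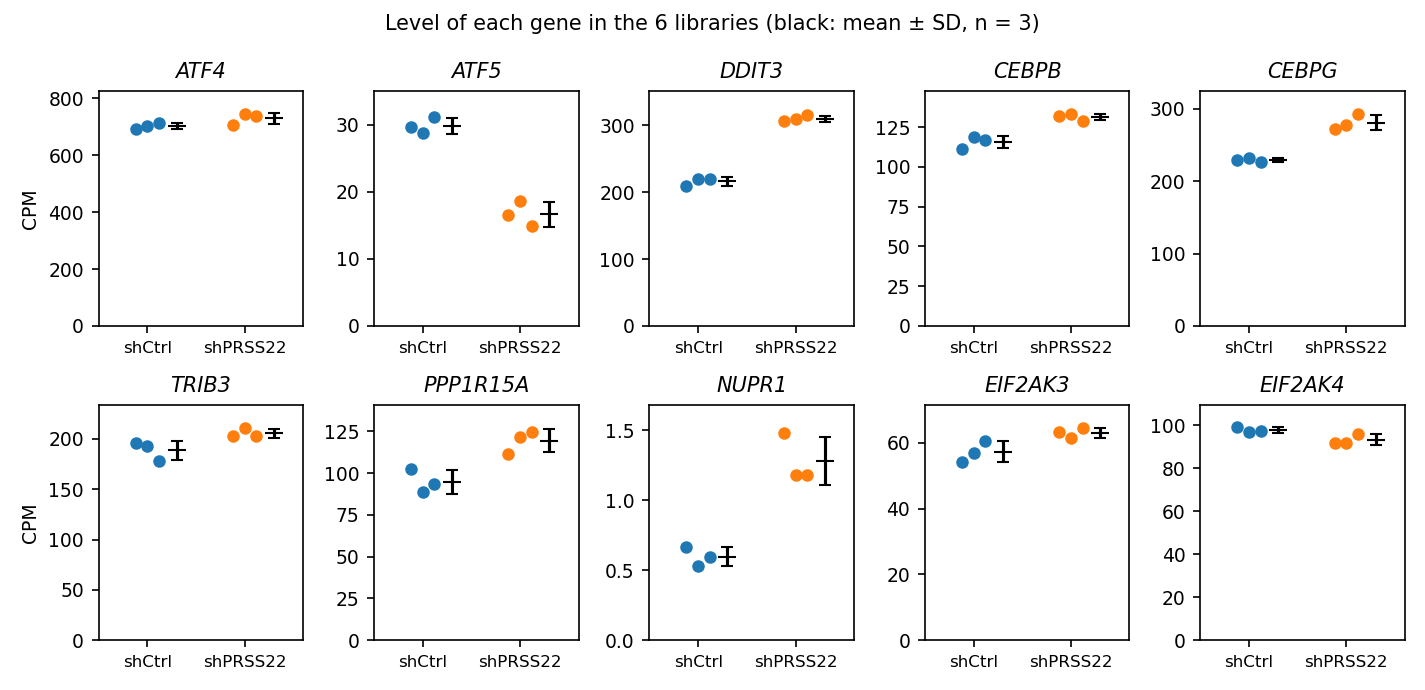
Level in CPM (vertical axes from 0, 1 scale per gene) of the 10 genes in the 3 shCtrl (blue) and 3 shPRSS22 (orange) libraries, with the mean ± SD beside the points. ATF5 stands at 14.9 to 18.6 CPM in shPRSS22, below all shCtrl libraries (28.7 to 31.1 CPM), while DDIT3 stands above them and ATF4 overlaps between groups.

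ATF4, the central transcription factor of the pathway, was the most abundant of the 10 and differed little between groups. Replicates 1 to 3 of shCtrl held 690.6, 703.3 and 711.5 CPM of it, and those of shPRSS22, in the same order, 706.1, 744.0 and 737.0 CPM. The groups overlapped, with shPRSS22 replicate 1 inside the shCtrl range. The log2 fold change was 0.06 (SE 0.034), and 78.5% of tested genes had a larger absolute change. ATF4 counts carried decimals in all 6 libraries, so some of its reads were divided with other loci by the authors' estimation.

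ATF5, a bZIP factor related to ATF4 and linked to cell survival and to the mitochondrial unfolded protein response, had the largest decrease of the 10. It measured 29.6, 28.7 and 31.1 CPM in the controls, against 16.5, 18.6 and 14.9 CPM in shPRSS22. The groups did not overlap, and the highest knockdown library stayed well under the lowest control. The means were 29.8 ± 1.22 and 16.7 ± 1.86 CPM (SD, n = 3), a log2 fold change of -0.84 (SE 0.075). Among 9988 tested genes with a mean of at least 10 CPM, 19 had a lower log2 fold change. In bulk RNA, fewer cells with the transcript and less transcript per cell cannot be told apart.

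DDIT3 (CHOP), a bZIP factor that dimerises with C/EBP proteins and is induced by ATF4, differed the other way. It stood at 208.8, 220.0 and 219.6 CPM in shCtrl and at 305.9, 309.3 and 314.7 CPM in shPRSS22. All knockdown libraries lay above all controls, with a spread of 4.44 CPM (SD) around a mean of 310.0 CPM. The log2 fold change was 0.52 (SE 0.033), and 92 of the 9988 genes with at least 10 CPM had a higher one.

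CEBPG and CEBPB are C/EBP factors that pair with ATF4 or DDIT3 on composite elements. CEBPG stood at 229.1, 231.8 and 227.1 CPM in shCtrl and 272.5, 278.0 and 292.5 CPM in shPRSS22, a log2 fold change of 0.29 (SE 0.034). CEBPB stood at 111.4, 118.6 and 117.0 CPM in shCtrl and 131.9, 133.0 and 128.9 CPM in shPRSS22, a change of 0.18 (SE 0.038). Both were higher without overlap, by less than DDIT3.

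NUPR1, a small stress-induced chromatin protein, was near the limit of detection. It had 10, 8 and 9 counts in shCtrl and 23, 18 and 18 in shPRSS22, or 0.528 to 0.668 CPM against 1.18 to 1.48 CPM. It reached the filter's 0.656 CPM in 1 shCtrl and 3 shPRSS22 libraries, and so was tested only through the group in which it was higher. Its log2 fold change of 1.09 had the largest error of the 10 (SE 0.327) and was 0.97 without shPRSS22 replicate 1, the library with the most counts.

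TRIB3, a pseudokinase that binds ATF4 and dampens the response, stood at 195.6, 192.7 and 177.9 CPM in shCtrl and 202.8, 211.0 and 203.1 CPM in shPRSS22. The groups did not overlap but were close together, and the log2 fold change was 0.12 (SE 0.037). PPP1R15A (GADD34), the inducible phosphatase adaptor, stood at 102.7, 88.6 and 93.3 CPM in shCtrl and 111.7, 121.6 and 124.8 CPM in shPRSS22. It was higher by 0.33 on the log2 scale (SE 0.049), again without overlap.

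The 2 kinases differed by little, in opposite directions. EIF2AK3 stood at 54.3, 57.0 and 60.6 CPM in shCtrl and 63.2, 61.5 and 64.5 CPM in shPRSS22, a log2 fold change of 0.14 (SE 0.049). EIF2AK4 stood at 99.1, 96.9 and 97.1 CPM in shCtrl and 91.9, 91.7 and 96.1 CPM in shPRSS22, a change of -0.07 (SE 0.04). For both genes the nearest libraries of the groups were about 1 CPM apart. The log2 fold changes in the authors' deposited table lay within 0.02 of those above for all 10 genes, for example -0.84 for ATF5 and 0.52 for DDIT3.

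**Figure D2:**
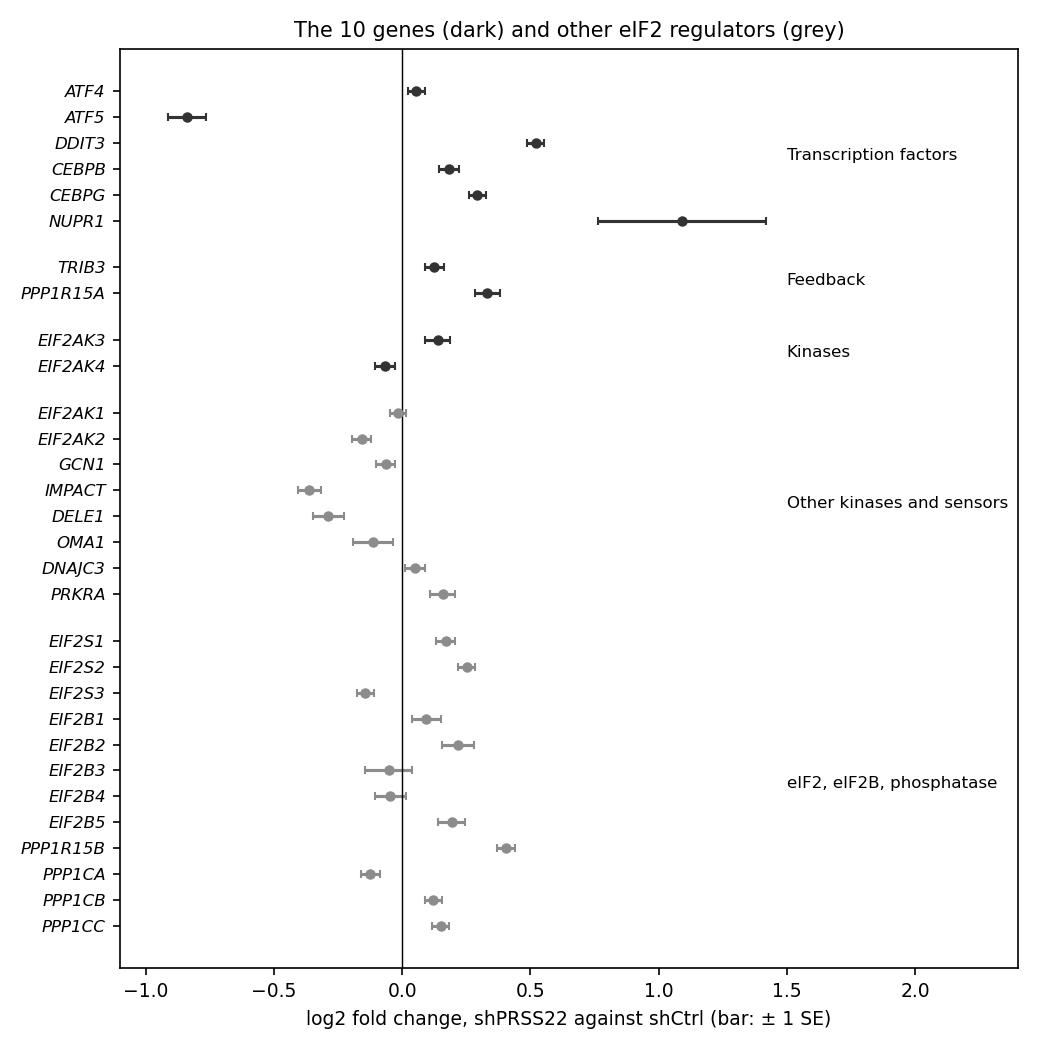
Log2 fold change of shPRSS22 against shCtrl (horizontal axis, bars ± 1 SE) for the 10 genes (dark) and for other regulators of eIF2 (grey). ATF5, at -0.84, is the gene furthest to the left, and NUPR1, at 1.09, has the widest error bar.

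Levels of different genes were compared in transcripts per 1000000 (TPM), which are scaled by gene length. In shCtrl the order was ATF4 at 1003.7 ± 18.0 TPM, DDIT3 at 566.5 ± 13.4, TRIB3 at 161.2 ± 7.46, CEBPB at 120.0 ± 3.72, CEBPG at 105.6 ± 0.404 and PPP1R15A at 74.1 ± 5.73 TPM (SD, n = 3). EIF2AK4 followed at 29.7 ± 0.37 TPM, ATF5 at 27.8 ± 1.23, EIF2AK3 at 22.7 ± 1.41 and NUPR1 at 0.19 ± 0.02 TPM. No neighbours in this order overlapped between libraries, although EIF2AK4 and ATF5 nearly did (lowest 29.34, highest 29.14 TPM). In shPRSS22 ATF5, at 15.6 ± 1.49 TPM, stood below EIF2AK3, at 25.3 ± 1.05 TPM. There CEBPB (137.0 ± 2.5 TPM) and CEBPG (129.8 ± 5.94 TPM) overlapped, and the order was otherwise the same.

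Ratios within a library do not depend on its depth. ATF5 stood at 2.78, 2.68 and 2.85 TPM per 100 TPM of ATF4 in shCtrl and at 1.52, 1.63 and 1.31 in shPRSS22. DDIT3 stood at 55.7, 57.2 and 56.3 per 100 of ATF4 in shCtrl and at 79.7, 76.5 and 78.6 in shPRSS22. Set against its C/EBP partners, DDIT3 was 2.51 ± 0.0212 times the sum of CEBPB and CEBPG in shCtrl and 3.08 ± 0.0206 times in shPRSS22. None of these 3 ratios overlapped between groups. The ratio of PPP1R15A to PPP1R15B, the constitutive phosphatase adaptor, did overlap, at 0.944 ± 0.0866 and 0.895 ± 0.0478. These ratios come from the contrast that chose the genes and carry no test.

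**Figure D3:**
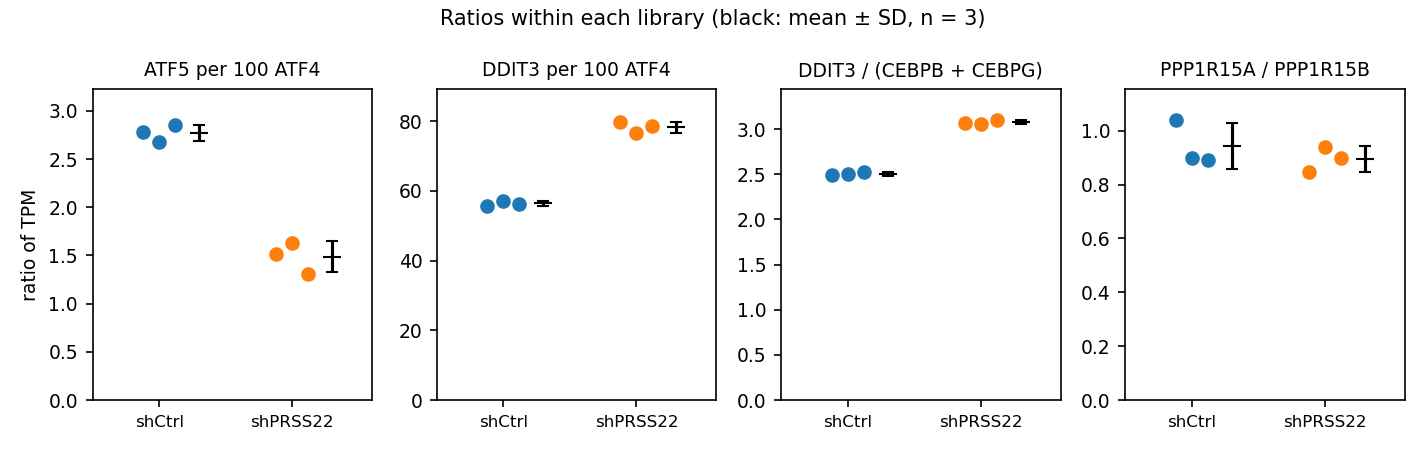
Ratios of TPM within each library (vertical axes from 0) for shCtrl (blue) and shPRSS22 (orange), with mean ± SD beside the points. ATF5 per 100 ATF4 is lower and DDIT3 per 100 ATF4 higher in all shPRSS22 libraries, while PPP1R15A to PPP1R15B overlaps between groups.

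Of the summed TPM of the 4 eIF2 kinases, EIF2AK1 held the most, 58.0% ± 0.636 in shCtrl and 58.3% ± 0.714 in shPRSS22. EIF2AK4 held 15.9% ± 0.526 and 15.4% ± 0.304, EIF2AK2 14.0% ± 0.554 and 12.7% ± 0.274, and EIF2AK3 12.1% ± 0.543 and 13.6% ± 0.23 (SD, n = 3). The shares of EIF2AK2 and EIF2AK3 did not overlap between groups, and those of EIF2AK1 and EIF2AK4 did.

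The 5′ leader, the part of an mRNA before its coding start, was examined for upstream ATG triplets. The genes were chosen by pathway, and upstream reading frames are part of how it works, so the numbers are a description. In the principal GENCODE release 29 transcript, ATF4 had 7, EIF2AK3 5, CEBPG and TRIB3 3 each, ATF5, DDIT3, PPP1R15A and NUPR1 2 each, and CEBPB and EIF2AK4 0. At least 7 were found in 6.02% of 12800 tested genes with a model, at least 2 in 32.3%, and at least 1 in 53.3%. The number depends on the transcript: it ranged from 3 to 7 for ATF4, from 2 to 6 for ATF5 and from 2 to 5 for DDIT3. ATF5 and DDIT3 have the same number in their principal transcripts. Whether the number bears on mRNA levels was not tested.

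Some members share exonic bases with genes on the other strand. The protocol describes no strand marking, so how the authors' estimation assigned reads there is not known. Counts carried decimals in 1 library for ATF5 and in 0 for DDIT3, CEBPB and EIF2AK3, against 6 for ATF4. What this means for reads on the shared bases was not tested. ATF5 (GRCh38 chr19:49928702-49933935, plus strand) shares 626 of 2954 exonic bases with NUP62 and IL4I1. DDIT3 (chr12:57516588-57521737, minus strand) shares 413 of 1307 with MARS1 and MBD6. CEBPB shares 231 of 1956 with CEBPB-AS1, and EIF2AK3 shares 819 of 5434 with 2 genes that carry only clone names. The nearest tested genes of ATF5 and DDIT3 were compared with the same fit. Beside ATF5, NUP62, a nuclear pore protein, stood at 49.7 CPM in shCtrl and 48.6 CPM in shPRSS22 (log2 fold change -0.03, SE 0.05, adjusted p = 0.66). VRK3, of the vaccinia-related kinase family, stood at 30.7 and 30.8 CPM (0.01, SE 0.059, adjusted p = 0.947). Neither value was past the threshold, and IL4I1 had a mean of 0.055 CPM.

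Beside DDIT3, MBD6, a methyl-CpG-binding domain protein, rose by 0.28 on the log2 scale, from 19.5 to 23.6 CPM (adjusted p = 0.00203). MARS1, methionyl-tRNA synthetase, rose from 328.0 to 351.9 CPM (0.10, adjusted p = 0.015). The MARS1 call did not hold without replicate 2 of shCtrl (adjusted p = 0.101) or replicate 1 of shPRSS22 (0.0745). Both rises were smaller than the difference of DDIT3. Reads on the shared bases were not counted apart, and their part in the differences of ATF5 and DDIT3 was not tested. Of the 20 genes next to the 10 members, 5 rose and 3 fell at an adjusted p under 0.05. Of all tested genes 19.9% rose and 19.3% fell, so nothing is read from these counts. Only 2 rose without shCtrl replicate 2, and 3 rose without shCtrl replicate 1, without shPRSS22 replicate 2 or with DESeq2.

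The other genes of the pathway were taken from lists made with earlier results of these data known, and were fitted over all genes. At an adjusted p under 0.05, 39.1% of all tested genes passed, 19.9% higher and 19.3% lower, and the count of each list is to be read beside those shares. Among other kinases and sensors, 3 of 8 fell and 1 rose (median log2 fold change -0.09). IMPACT, an inhibitor of EIF2AK4 activation, fell from 84.4 ± 2.24 to 65.7 ± 2.48 CPM (-0.36, adjusted p = 6.21e-08). DELE1, which carries mitochondrial stress to EIF2AK1, fell from 44.0 ± 1.09 to 36.0 ± 3.3 CPM (-0.29, adjusted p = 2.50e-04). EIF2AK2 fell by 0.16, and EIF2AK1 was at -0.02 (adjusted p = 0.719). PRKRA, an activator of EIF2AK2, rose by 0.16 (adjusted p = 0.0116), a call lost without shCtrl replicate 3 (0.0686), without shPRSS22 replicate 2 (0.0591) and with DESeq2 (0.0676).

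Among subunits of eIF2 and its exchange factor eIF2B, the phosphatase and its constitutive adaptor, 7 of 12 rose and 2 fell (median 0.14). PPP1R15B rose most, from 239.2, 238.9 and 254.2 CPM in shCtrl to 320.2, 312.8 and 336.4 CPM in shPRSS22. Its log2 fold change was 0.41 (SE 0.035, adjusted p = 7.1e-11). EIF2S2, the beta subunit of eIF2, rose by 0.25 and EIF2B2 by 0.22, while EIF2S3, the gamma subunit, changed by -0.15 (adjusted p = 7.65e-04) and PPP1CA, a catalytic subunit, by -0.13. EIF2B2 lost its call without shPRSS22 replicate 3 (adjusted p = 0.0629) and with DESeq2 (0.0512), and PPP1CA without shPRSS22 replicate 1 (0.0504).

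The ATF, CREB and C/EBP families also moved in both directions. Of 23 tested members other than the 10 genes, 8 rose and 6 fell (median 0.04); with DESeq2, 6 rose and 3 fell. ATF3, a stress-induced repressor downstream of ATF4, rose from 68.4, 71.8 and 69.5 CPM to 110.6, 112.6 and 117.6 CPM (log2 fold change 0.70, SE 0.041, adjusted p = 6.35e-15). JDP2, a related repressor, rose by 0.52 and CREM by 0.35. HLF, at 3.73 and 2.34 CPM, fell by 0.67, CEBPD by 0.64 and CREB3L4 by 0.50, all 3 at low levels. The call of CEBPD was lost without replicate 2 (adjusted p = 0.0518) or 3 (0.141) of shCtrl, without shPRSS22 replicate 1 (0.0654) or 3 (0.198) and with DESeq2 (0.148), and that of HLF with DESeq2 (0.0527). The log2 fold change of CEBPD was -0.40 without shPRSS22 replicate 3 and -0.94 without shPRSS22 replicate 2. ATF5, at -0.84, lay below every tested gene of this list, but it was chosen with its lower level known, so nothing is read from this.

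Target genes of ATF4 mostly rose, a direction known when the lists were made. Of genes for amino acid synthesis and transport 13 of 18 tested rose and 0 fell (median 0.19). At an unadjusted p under 0.05 in edgeR 14 rose and 2 fell, and DESeq2 called 12 and 0; with the replicate block 1 fell. SLC7A11, the cystine transporter, rose by 0.58, PSAT1, of serine synthesis, by 0.38 and SLC1A4, a neutral amino acid transporter, by 0.33. Of genes for tRNA charging and export 8 of 10 rose and 0 fell (median 0.18). With edgeR at an unadjusted p under 0.05 and with DESeq2 the counts were also 8 and 0. Leaving out 1 library gave 6 to 7 higher and 0 lower. MARS1, described above beside DDIT3, is among those that rose. CARS1 rose by 0.37, WARS1 by 0.35 and GARS1 by 0.29, which charge cysteine, tryptophan and glycine tRNAs.

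Of ATF4 targets for stress control and secreted factors 8 of 10 rose and 1 fell (median 0.47). The hormone FGF21 went from 0.935, 0.792 and 0.33 CPM to 2.32, 1.64 and 2.48 CPM, a level of few counts (log2 fold change 1.64, SE 0.307, adjusted p = 7.43e-05). Like NUPR1, it passed the low-count filter only through shPRSS22, since 2 of its shCtrl libraries reached 0.656 CPM; with no filter the adjusted p was 1.1e-06. INHBE, an inhibin beta subunit, rose by 1.56 and CHAC1, which degrades glutathione, by 0.70. ADM2, a peptide hormone, fell by 0.20 (adjusted p = 0.0184), a call lost without shCtrl replicate 1 (0.138), without shPRSS22 replicate 1 (0.117) and with DESeq2 (0.109). Over the 3 ATF4 lists 29 of 38 tested genes rose and 1 fell, a count that is no independent evidence of direction, since the lists were made with it known.

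Of 7 tested genes linked to DDIT3, 3 rose, 1 fell and 3 did not pass (median 0.02), where 39.1% of all tested genes passed. The death receptor TNFRSF10B rose by 0.35, the BCL2 family member PMAIP1 by 0.34 and the oxidase ERO1B by 0.22. BCL2L11, another death-promoting family member, fell by 0.17 (adjusted p = 0.00648), which did not hold without shCtrl replicate 3 (0.056). ERO1A, at 0.02, and BBC3, at 0.00, did not pass.

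Of 14 tested mitochondrial chaperones, proteases and related genes, to which ATF5 is linked, 4 rose, 2 fell and 8 did not pass, a share near the 39.1% of all tested genes. The median was 0.02; 2 rose without shCtrl replicate 1. DNAJA3, an HSP40 co-chaperone, rose by 0.27, the protease HTRA2 by 0.22 and the import subunit TIMM17A by 0.18. TRAP1, a mitochondrial HSP90, went from 157.0, 157.5 and 159.1 CPM to 137.6, 137.2 and 125.1 CPM (log2 fold change -0.24, adjusted p = 4.84e-06), and HSPD1, the chaperonin HSP60, changed by -0.17 (adjusted p = 1.7e-04). HTRA2 lost its call without shCtrl replicate 1 (0.05) and with DESeq2 (0.0714).

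Targets of the other arms of the unfolded protein response, ATF6 and XBP1, fell in 6 of 15 and rose in 3 (median -0.08). DESeq2 gave 7 lower and 3 higher, and leaving out 1 library gave 4 to 7 lower and 3 higher. HERPUD1, of protein degradation, rose by 0.30, HSPA5, the chaperone BiP, by 0.26 and its partner DNAJB11 by 0.17. CRELD2 fell by 0.34, the chaperone HYOU1 by 0.32 and EDEM1, of glycoprotein disposal, by 0.21. Among factors of nonsense-mediated mRNA decay, which degrades some mRNAs with upstream reading frames, 1 of 12 fell and 0 rose (median -0.07; DESeq2 gave the same counts, and edgeR at an unadjusted p under 0.05 gave 3 and 1). UPF3A was the one that fell, by 0.27 (adjusted p = 0.00237). Without shPRSS22 replicate 3, 4 fell; without shCtrl replicate 3, 2 fell; with no low-count filter 2 fell; with the replicate block 3 fell; and without shPRSS22 replicate 2, 2 rose.

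**Figure D4:**
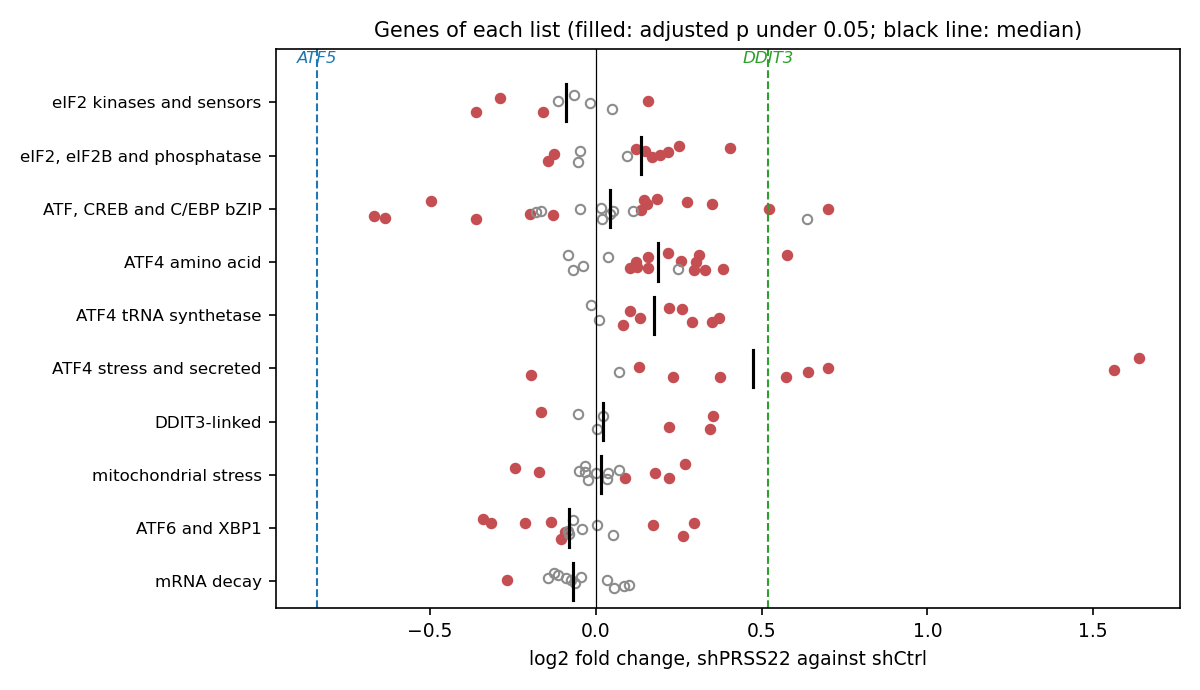
Log2 fold change of shPRSS22 against shCtrl (horizontal axis) for the tested genes of each list (rows), filled where the adjusted p was under 0.05, with the list's median as a black line. Dashed lines mark ATF5 (-0.84) and DDIT3 (0.52). The ATF4 lists lie mostly right of 0. No listed gene lies as low as ATF5, which was chosen with its lower level known.

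The genes whose pattern over the 6 libraries was most like that of ATF5 were found by the root mean square difference of centred log2 CPM, among genes with a mean of at least 10 CPM. The nearest 4 were MARVELD1 (0.057), LCN2 (0.059), HMGA2 (0.078) and FAH (0.079). MARVELD1 stood at 26.1, 26.1 and 25.4 CPM in shCtrl and 14.9, 15.5 and 12.9 CPM in shPRSS22. Like ATF5, all 4 were lowest in shPRSS22 replicate 3, which a choice by likeness over these libraries favours. For DDIT3 the nearest were JDP2 (0.012), PRDX1 (0.019), SLC36A4 (0.025), CCDC126 (0.027) and SERP1 (0.03). JDP2, a bZIP factor of the list above, stood at 48.5, 50.6 and 50.4 CPM in shCtrl and 71.0, 72.0 and 71.6 CPM in shPRSS22. These likenesses rest on the same 6 libraries and mostly on the difference between groups.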

How the data were processed

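Poly(A) RNA of 3 shCtrl and 3 shPRSS22 libraries was sequenced from circularised DNA, per the labels' protocols. The submitters' processing notes name RSEM 1.3.1, the aligners Bowtie2 2.3.4.3 and HISAT2 2.2.1, quality control with FastQC 0.12.1, and, in R 4.3.1, DESeq2 1.4.5, on GRCh38.p13, without saying which step each served. Per the file headers, the authors deposited read counts, which are estimated counts (some carry decimals), TPM and FPKM values, normalised counts as a scaled signal, and a log2 fold change with p-values and q-values. FPKM, scaled counts and group means were not used.

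Estimated counts were rounded and fitted over all genes with edgeR 4.0.16 (R 4.3.3): TMM scaling, filterByExpr (13104 genes left), robust quasi-likelihood F test, Benjamini-Hochberg adjustment, two-sided, threshold 0.05. CPM are per 1000000 of the TMM-scaled total; SE is the log2 fold change divided by the square root of F. DESeq2 1.42.0, RLE scaling, no filter, a replicate block and leaving out each library were the alternatives, with TPM plus a pseudocount of 0.1 for the members. Members and lists were chosen with earlier results of these data known. Named list genes are those always named (ATF3, EIF2AK1, EIF2AK2, PPP1R15B) and up to 3 highest and 3 lowest past the threshold per list at 1 CPM or more; BBC3, ERO1A and VIL1 were added after their values were seen. Of the 5 genes most like ATF5 in pattern, 1 is not reported here. Sequences are from RefSeq (GRCh38.p14), gene models from GENCODE release 29. Each library counted as 1 replicate. Differences between replicates exceeded counting noise (chi-square per gene 1.80 to 3.05), which does not show whether they were separate cultures. The spread between replicates beyond counting noise, as a coefficient of variation common to all genes, was 2.97%.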

Additional observations from a re-analysis of the deposited data

How the results depend on the processing

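The log2 fold changes of the 10 genes kept their sign under every alternative run. ATF5 lay between -0.92 and -0.77 and DDIT3 between 0.50 and 0.54. NUPR1 moved most, to 0.81 from mean TPM and between 0.97 and 1.18 when 1 library was left out. With the replicate number as a block ATF5 was -0.84 and DDIT3 0.52; same-numbered libraries correlated at 0.019, 0.033 and 0.091 in their deviations from the group means, so the numbers were not taken as pairs. That block gave 2782 genes higher and 2747 lower, against 2603 and 2523 without it, 1 amino acid gene lower and 3 mRNA decay genes lower. DESeq2 called 1637 genes lower, 3 bZIP genes lower, 0 stress and secreted genes lower, 0 kinases and sensors higher and 3 neighbouring genes higher. With no low-count filter 2 mRNA decay genes were lower. Leaving out 1 library gave 0 to 1 stress and secreted genes lower, 0 to 1 DDIT3-linked genes lower, 0 to 1 kinases and sensors higher, 1 to 2 eIF2 and phosphatase genes lower, 0 to 2 mRNA decay genes higher, 1 to 4 lower, 2 to 4 mitochondrial genes higher and 2 to 5 neighbouring genes higher. EIF2AK1, not called, went from -0.02 to between -0.037 and 0.001 when 1 library was left out (positive without shCtrl replicate 3), and VRK3, not called, from 0.01 to between -0.005 and 0.034 (negative without shPRSS22 replicate 2 or 3). The cause of these shifts was not tested. The motif search without the 50 bases after the start left the antioxidant element in 2 members rather than 3. NUPR1 and FGF21 are limited by few counts.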
